A study of Mus musculus with 10 samples.

Results

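The liver makes most of the complement and coagulation proteins of plasma, and 37 genes of these systems were followed in normal mouse liver and in 2 kinds of mouse liver tumor. The genes were taken by symbol from a table of 16697 genes, and all 37 were present: 16 complement genes, 3 fibrinogen chains, 7 vitamin K dependent factors, 4 contact system genes and 7 other plasma proteins of clotting and fibrinolysis. RNA sequencing covered 10 libraries: normal liver from wild-type mice (NL, n = 4), tumors induced by the oncogene c-MYC together with the empty pT3 vector (c-MYC, n = 3), and tumors from c-MYC plus FOXO1AAA, a FOXO1 mutant that stays active (c-MYC/FOXO1AAA, n = 3). Both tumor models were made by hydrodynamic tail vein injection, which delivers plasmids mainly to hepatocytes, and the sleeping beauty transposase carried the pT3-EF1α transgenes into the genome, so that the EF1α promoter drove FOXO1AAA. Tumors were taken when mice became moribund, and the labels give no ages or times. All 10 libraries carry the genotype label WT and the strain label C57BL/6, whereas the extraction protocol and the study's methods name FVB mice. The study's text and plasmid list give no MCL1 for the control tumors, whereas a figure legend adds it to their plasmids.

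Depth was similar across groups, with 13.1 M to 20.5 M reads in genes per library, as recovered from the deposited values. The deposited FPKM also carry a scaling factor, by which the read total of each library was multiplied. It was 0.649 to 0.684 in NL, 1.256 to 1.295 in c-MYC and 1.454 to 1.502 in c-MYC/FOXO1AAA. Tumor levels given as a percent of the NL mean are therefore lower than shares of reads alone would give. Results with other scalings are given below. Mouse Foxo1 measured 7.14 ± 0.532 FPKM in NL, 5.63 ± 0.721 in c-MYC and 83.1 ± 12.8 in c-MYC/FOXO1AAA (mean ± SD, as throughout), and it was called higher with FOXO1AAA. Mouse Myc was low in both tumor groups, at 0.771 ± 0.254 and 0.983 ± 0.118 FPKM, against 11.2 ± 8.17 in NL, so this gene did not serve as a check of the c-MYC label. The labels do not say that every library came from its own animal, and p-values measure the spread between libraries.

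Complement is a cascade of plasma proteases. Mannose-binding lectins or antibody-bound C1 start it, C3 convertases built from C2, C4 and factor B amplify it, and the terminal components C5 to C9 form a pore in the target membrane. Coagulation ends with thrombin (F2) turning fibrinogen into fibrin, and several of its proteases need a vitamin K dependent modification made in the hepatocyte. The contact system (F12, F11, prekallikrein and kininogen) starts clotting on charged surfaces and releases bradykinin. Hepatocytes are the main source of nearly all of these proteins, and their genes are classic targets of HNF4 and C/EBP factors.

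Upstream DNA is shown for the 3 fibrinogen genes, which lie side by side on chromosome 3 and moved together, and for C4bp and Pros1, which had some of the largest increases with FOXO1AAA. RefSeq promoters of build GRCm38.p6 were matched for 29 of the 37 genes. C2, C4b, Cfb, Cfi, Masp1, Kng1, Plg and Proc had no entry. Each line gives up to 250 bases before the RefSeq start, 5′ to 3′ on the strand of the gene, without bases that GENCODE places in an exon of the gene. Capitals mark matches on either strand to CAAAGTCCA (HNF4), TTGCNNAA (C/EBP), GTAAACA (forkhead) or CACGTG (E-box).
Fga, chr3:83025903-83026075, plus strand: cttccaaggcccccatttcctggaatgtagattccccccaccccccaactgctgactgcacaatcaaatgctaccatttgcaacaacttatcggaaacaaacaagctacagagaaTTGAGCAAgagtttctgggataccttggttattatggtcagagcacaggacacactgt
Fgb, chr3:83049864-83050113, minus strand: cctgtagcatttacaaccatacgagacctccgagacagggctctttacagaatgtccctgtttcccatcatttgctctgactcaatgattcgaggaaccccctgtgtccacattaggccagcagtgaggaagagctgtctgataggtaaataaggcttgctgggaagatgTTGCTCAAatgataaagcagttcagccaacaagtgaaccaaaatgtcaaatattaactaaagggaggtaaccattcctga
Fgg, chr3:83007474-83007723, plus strand: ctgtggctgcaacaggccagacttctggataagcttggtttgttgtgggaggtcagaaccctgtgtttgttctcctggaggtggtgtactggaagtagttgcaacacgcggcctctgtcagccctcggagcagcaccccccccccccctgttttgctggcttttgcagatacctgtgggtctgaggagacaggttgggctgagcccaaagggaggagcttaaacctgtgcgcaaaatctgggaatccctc
C4bp, chr1:130661633-130661868, minus strand: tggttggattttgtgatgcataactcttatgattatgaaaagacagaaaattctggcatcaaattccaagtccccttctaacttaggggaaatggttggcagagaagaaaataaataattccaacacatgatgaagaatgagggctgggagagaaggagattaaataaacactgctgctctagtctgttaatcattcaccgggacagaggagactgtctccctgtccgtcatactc
Pros1, chr16:62854057-62854306, plus strand: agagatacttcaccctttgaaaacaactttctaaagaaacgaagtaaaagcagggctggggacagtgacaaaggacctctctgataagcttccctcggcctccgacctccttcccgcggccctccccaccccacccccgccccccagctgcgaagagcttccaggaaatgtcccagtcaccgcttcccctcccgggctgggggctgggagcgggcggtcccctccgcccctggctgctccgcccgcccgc

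Fga held a C/EBP match at -135 to -128 from the RefSeq start, and Fgb held one at -80 to -73. Fgg, C4bp and Pros1 held no match to any of the 4 motifs. Over the 29 genes, 9 held the C/EBP letters, against 10.8% of 27025 mouse genes. A gene was counted if any of its promoter windows of this length held the letters. The forkhead letters, which FOXO and FOXA factors bind, occurred in F11 and Klkb1, against 3.54% of genes. No member held the HNF4 letters (0.451% of genes) or the E-box that MYC binds (6.86%). A match is a description of letters in this window.

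In c-MYC tumors, 34 of the 37 genes fell relative to NL and all 37 log2 fold changes were negative, where 48.1% of all 14017 genes tested were called, 24.5% higher and 23.6% lower. A call is an adjusted p under 0.05 in limma's test for a change above 1.5-fold. The genes not called were Cfb, Fga and Habp2. The median log2 fold change of the members was -2.53, beside 0.08 for all genes tested, and their levels ranged from 0.225% of the NL mean for C9 to 67.6% for Cfb. Groups did not overlap for 36 members, Cfb being the exception, beside 73.9% of all genes. In bulk tissue, fewer hepatocytes and less RNA of a gene per hepatocyte cannot be told apart.

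In c-MYC/FOXO1AAA tumors, 36 of 37 genes were lower than in NL, where 57.8% of all genes were called, 31.2% higher and 26.6% lower. Pros1 was the exception. The median log2 fold change was -5.33, beside 0.21 for all genes. Apart from Pros1 at 110.5% of the NL mean, the members lay between 1.16% (Hrg) and 15.2% (Cfb), a 13.2-fold range, whereas in c-MYC the highest and lowest were 301-fold apart. Cfb tops both ranges and was a low gene, at 1.82 FPKM in NL. The next highest were C2 at 5.90% in c-MYC/FOXO1AAA and Fga at 44.0% in c-MYC. Of the 37 genes, 32 were under 5% of the NL mean in c-MYC/FOXO1AAA and 11 were under 5% in c-MYC. Levels under 1% occurred for 6 genes in c-MYC and for none in c-MYC/FOXO1AAA.

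**Figure D1:**
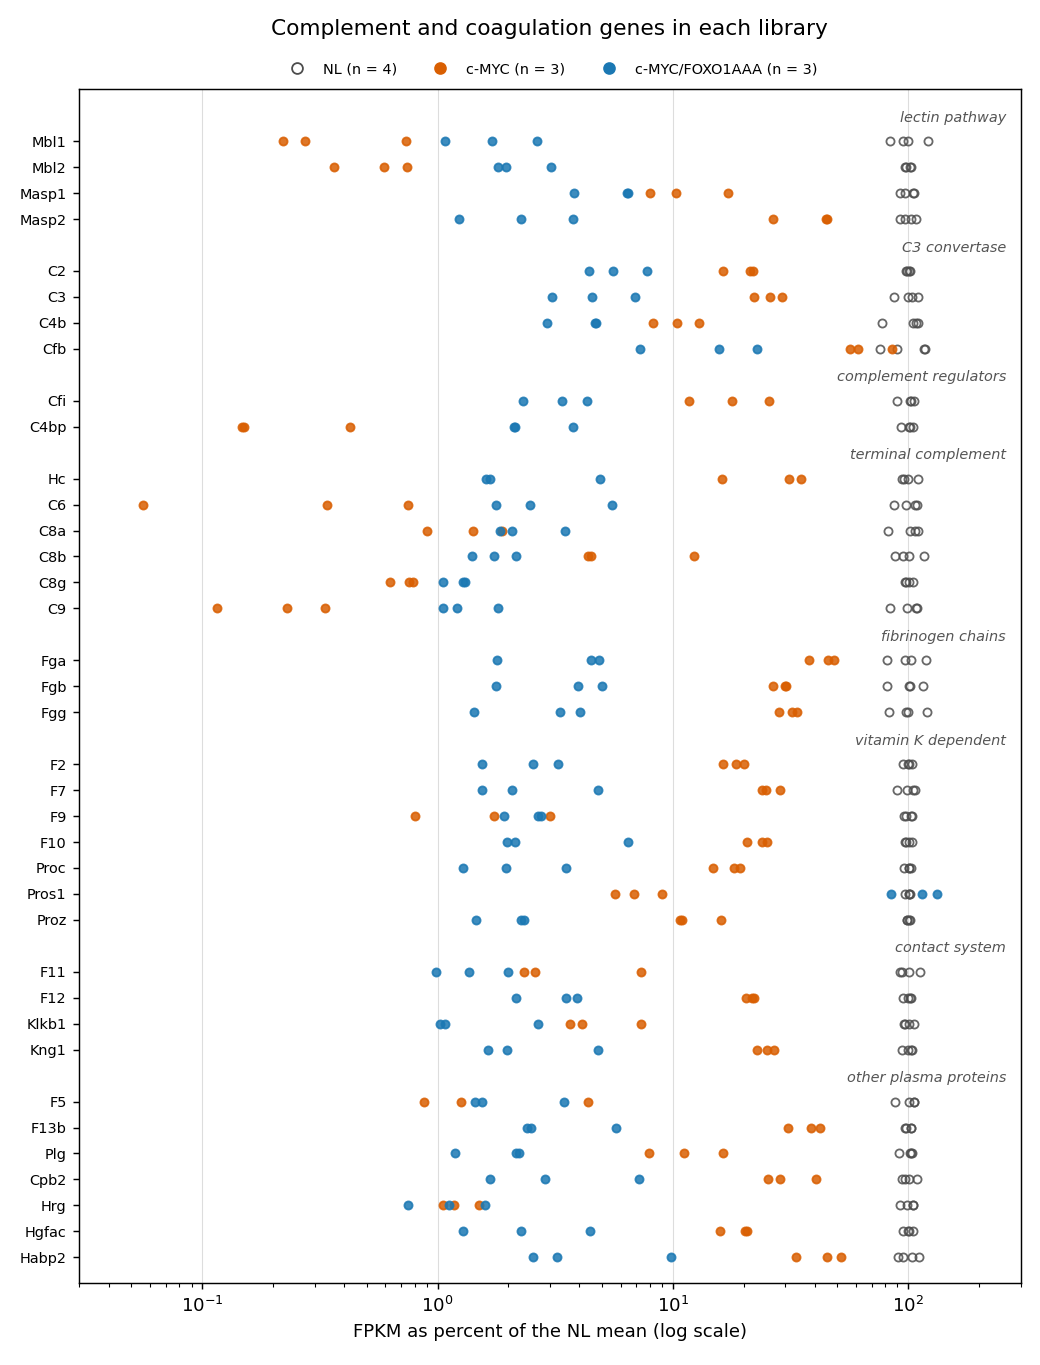
Level of the 37 genes in each of 10 libraries as a percent of the NL mean FPKM (log scale), ordered by function, where each point is a library. The c-MYC points of C9, C4bp, C6, Mbl1, Mbl2 and C8g lie under 1%, while the c-MYC/FOXO1AAA points of nearly all genes lie between 1% and 10% and those of Pros1 lie around the NL points.

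Between the tumors, 24 genes were lower and 6 were higher with FOXO1AAA than without it, and 7 were not called. Of all genes tested, 28.7% were called here, 12.7% lower and 15.9% higher. The genes that rose were Mbl1, Mbl2, C4bp, C6, C9 and Pros1, and all of them had fallen in c-MYC relative to NL. Of the 24 that were lower, 21 had fallen in c-MYC as well, and the other 3 were Cfb, Fga and Habp2. Groups did not overlap for 33 members, beside 63.4% of all genes, and overlapped for C8a, F9, F5 and Hrg. The comparisons share libraries, so their values are set side by side without a test of their relation.

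**Figure D2:**
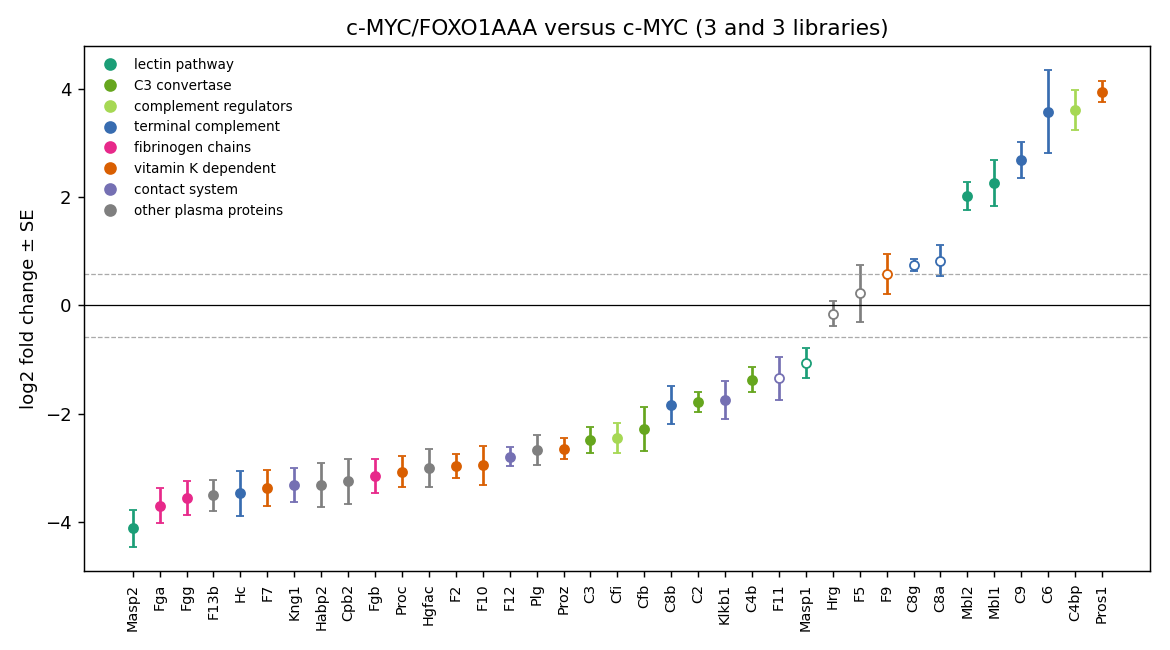
Log2 fold change (± SE, 3 against 3 libraries) of each of the 37 genes in c-MYC/FOXO1AAA versus c-MYC, colored by function. Filled points were called, open points were not, and dashed lines mark 1.5-fold. The fibrinogen, contact system and C3 convertase points all lie below 0, and 5 of the 6 filled points above 0 are complement genes.

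The functional groups are set side by side here, and no test between groups of genes was made. The 3 fibrinogen chains had a median log2 fold change of -1.66 in c-MYC versus NL and of -3.56 between the tumors. The vitamin K dependent factors had medians of -2.53 and -2.95, and the contact system had -3.30 and -2.26. The 16 complement genes had -3.63 and -1.21, with 15 lower in c-MYC than in NL and then 8 lower, 5 higher and 3 not called with FOXO1AAA. Relative to NL, the c-MYC/FOXO1AAA medians were -4.92 for fibrinogen, -5.37 for the vitamin K dependent factors, -5.72 for the contact system and -5.34 for complement.

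Among the lectin pathway starters, the mannose-binding lectins Mbl1 and Mbl2, which recognize microbial sugars, fell most in c-MYC and were higher again with FOXO1AAA. Mbl1 measured 168, 148, 215 and 177 FPKM in NL 1 to 4, 0.390, 0.483 and 1.29 in c-MYC 1 to 3 and 1.89, 4.68 and 3.01 in c-MYC/FOXO1AAA 1 to 3. Mbl2 measured 559, 589, 584 and 557 FPKM in NL, 3.37, 2.08 and 4.26 in c-MYC and 11.2, 17.3 and 10.3 in c-MYC/FOXO1AAA. Every c-MYC/FOXO1AAA library lay above every c-MYC library for both lectins, with log2 fold changes of 2.26 ± 0.43 (SE, as throughout; adjusted p = 0.0071) and 2.02 ± 0.25 (adjusted p = 0.00055). The Mbl1 mean of c-MYC, 0.723 FPKM, leaned on c-MYC 3 and was 0.436 without it. In c-MYC/FOXO1AAA the lectins stood at 1.81% and 2.26% of the NL mean.

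The proteases that these lectins carry had negative differences between the tumors. Masp2, which cleaves C4 and C2, measured 355, 340.2, 321 and 307 FPKM in NL, 149, 147 and 88.4 in c-MYC and 4.07, 7.46 and 12.5 in c-MYC/FOXO1AAA. Its decrease from c-MYC to c-MYC/FOXO1AAA, -4.11 ± 0.34 (adjusted p = 1.2e-05), was the largest of the 37 genes. The smaller decrease from NL to c-MYC, -1.40 ± 0.32 (adjusted p = 0.032), was not called without NL 1, NL 2, NL 3 or c-MYC 3, with adjusted p between 0.0519 and 0.125. It was not called with an equal FPKM total (-0.48, adjusted p = 0.778) or quantile normalization (-0.72, adjusted p = 0.57) either. Exons of Masp2 share 54.9% of their bases with Tardbp on the opposite strand. Tardbp was called higher in both tumors than in NL, and the strand setting of the counting is not stated. The FPKM of Masp2 were computed with a length of 738 bp, where the longest annotated transcript has 3058 bp. Masp1, the other lectin protease, fell from 61.2 ± 3.91 FPKM in NL to 7.24 ± 2.93 in c-MYC and measured 3.39 ± 0.912 in c-MYC/FOXO1AAA, a difference between tumors of -1.06 ± 0.27 that was not called (adjusted p = 0.16). It was called without c-MYC 1 (-1.31, adjusted p = 0.0411), with quantile normalization (-1.32, adjusted p = 0.0309) and with no fold threshold (adjusted p = 0.00662).

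All 4 C3 convertase components were lower with FOXO1AAA than in c-MYC, and C2, C3 and C4b had fallen in c-MYC as well. C3, the protein on which all activation routes converge, averaged 1717 ± 169, 441 ± 58.9 and 82.9 ± 33.5 FPKM in NL, c-MYC and c-MYC/FOXO1AAA. C4b, a precursor of the classical convertase, measured 562, 394, 534 and 554 FPKM in NL, 41.9, 66.2 and 53.0 in c-MYC and 14.9, 24.2 and 23.8 in c-MYC/FOXO1AAA. Its decrease between the tumors, -1.37 ± 0.23 (adjusted p = 0.012), was not called without c-MYC 2 or without c-MYC/FOXO1AAA 1 (adjusted p = 0.0534 and 0.0533). C4a, a near-identical copy of C4b that could share its reads, averaged 413 ± 91.9, 11.7 ± 4.23 and 6.93 ± 1.32 FPKM.

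Cfb, the protease of the alternative convertase, was the member nearest to its normal level in c-MYC. It measured 2.15, 1.62, 2.13 and 1.38 FPKM in NL, 1.03, 1.55 and 1.11 in c-MYC and 0.132, 0.286 and 0.414 in c-MYC/FOXO1AAA, where 6 to 20 reads stood behind each value. The NL and c-MYC ranges overlapped (-0.56 ± 0.38, adjusted p = 0.77), and this difference turned positive, to 0.36, when libraries were scaled to an equal FPKM total. The decrease with FOXO1AAA was called (-2.28 ± 0.41, adjusted p = 0.0044), though not with a pseudocount of 1 FPKM (-0.80, adjusted p = 0.28). The readthrough gene Gm20547 shares 79.5% of the exon bases of Cfb and 42.8% of those of C2 on the same strand, so the split of reads among these genes is uncertain. C2 averaged 131 ± 2.13, 26.0 ± 3.93 and 7.76 ± 2.27 FPKM, computed with a length of 535 bp where the longest annotated transcript has 2641 bp.

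The regulators moved in opposite directions between the tumors. C4bp, a cofactor for the breakdown of C4b, measured 313, 278, 302 and 305 FPKM in NL, 0.450, 0.440 and 1.27 in c-MYC and 6.30, 11.2 and 6.40 in c-MYC/FOXO1AAA. It was 0.241% of the NL mean in c-MYC and 2.67% in c-MYC/FOXO1AAA, a log2 fold change between tumors of 3.60 ± 0.37 (adjusted p = 5.9e-05), and the c-MYC mean of 0.721 FPKM was 0.445 without c-MYC 3. Cfi, the protease that C4bp assists, measured 384, 339.6, 399 and 388 FPKM in NL, 67.6, 96.7 and 44.2 in c-MYC and 8.67, 12.7 and 16.2 in c-MYC/FOXO1AAA. Cfi fell in both steps, by 2.51 and then 2.45 on the log2 scale, with no overlap between groups.

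The 6 terminal components all fell in c-MYC, with a median log2 fold change of -6.67, the lowest of the functional groups. C9, the pore-forming subunit, had the largest decrease of all members there. It measured 680.3, 525, 684 and 622 FPKM in NL, 0.723, 1.43 and 2.08 in c-MYC and 6.62, 11.4 and 7.60 in c-MYC/FOXO1AAA, and 25 to 76 reads stood behind the c-MYC values. C9 was higher with FOXO1AAA by 2.68 ± 0.34 (adjusted p = 0.00034) in 3 of 3 libraries, at 1.36% of the NL mean.

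C6, which joins the complex after C5, measured 153, 121, 149 and 137 FPKM in NL, 0.477, 0.0781 and 1.05 in c-MYC and 3.47, 7.71 and 2.47 in c-MYC/FOXO1AAA. Its c-MYC values rest on 23, 2 and 53 reads, and its increase of 3.58 ± 0.77 (adjusted p = 0.0075) has the widest error of the called changes. The C6 mean in c-MYC was 0.533 FPKM and 0.278 without c-MYC 3, and in c-MYC/FOXO1AAA it was 4.55 and 2.97 without library 2.

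Hc, the gene of C5, was lower with FOXO1AAA, where C6 and C9 were higher. It measured 40.2, 38.6, 44.6 and 38.2 FPKM in NL, 12.6, 14.1 and 6.50 in c-MYC and 0.648, 0.673 and 1.97 in c-MYC/FOXO1AAA, and it had the smallest decrease of the terminal genes in c-MYC (-1.94 ± 0.38) and the largest with FOXO1AAA (-3.47 ± 0.41). Its c-MYC/FOXO1AAA mean of 1.10 FPKM was 0.661 without library 3. The 3 chains of C8 separated as well. C8a and C8g fell to 3.59 ± 1.25 and 5.34 ± 0.622 FPKM in c-MYC from 257 ± 32.3 and 738 ± 24.7, and stood at 6.35 ± 2.27 and 8.97 ± 1.05 in c-MYC/FOXO1AAA, differences that were not called (adjusted p = 0.50 and 0.26). C8g was called higher with an equal FPKM total (0.92, adjusted p = 0.018), and both were with no fold threshold (adjusted p = 0.0298 and 0.000269). C8b, the neighbor of C8a on chromosome 4, fell to 21.8 ± 14.0 in c-MYC (13.7 without c-MYC 2) and to 5.46 ± 1.17 with FOXO1AAA, a change of -1.84 ± 0.35 that had an adjusted p of 0.0502 without c-MYC/FOXO1AAA 1.

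The 3 chains of fibrinogen, the precursor of fibrin, all stood above the members' median of 17.4% of the NL mean in c-MYC. Fga, the alpha chain, measured 1831, 1444, 2127 and 1733 FPKM in NL, 817, 861 and 677 in c-MYC and 31.8, 86.2 and 80.1 in c-MYC/FOXO1AAA. Fgb, the beta chain, measured 1430.2, 1139.6, 1619 and 1412 FPKM in NL, 424, 419 and 372 in c-MYC and 24.7, 55.4 and 70.2 in c-MYC/FOXO1AAA. Fgg, the gamma chain, measured 2081, 1758, 2548 and 2117 FPKM in NL, 715, 684 and 603 in c-MYC and 30.3, 70.1 and 85.3 in c-MYC/FOXO1AAA. For each chain the 3 groups did not overlap, and c-MYC/FOXO1AAA 1 was the lowest library. Fgg had the highest mean FPKM of the chains in NL and Fga had it in both tumors. This order depends on the gene lengths used, since Fga was computed with 2083 bp where its longest annotated transcript has 2587 bp.

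In c-MYC the chains stood at 44.0%, 28.9% and 31.4% of the NL mean. Fgb and Fgg were called lower (-1.78 ± 0.29 and -1.66 ± 0.30, adjusted p = 0.0030 and 0.0058), but neither call was kept with an equal FPKM total (-0.85 and -0.74) or with quantile normalization (-1.01 and -0.81). Fga was not called (-1.18 ± 0.30, adjusted p = 0.079), and it was called when c-MYC/FOXO1AAA 1 was left out of the shared estimate of the spread (adjusted p = 0.0029) or when only NL and c-MYC were fitted. Over all alternatives, the log2 fold change of Fga ranged from -1.28 to -0.25, so its size depended on the scaling as well. The further decreases with FOXO1AAA were -3.69 ± 0.32, -3.14 ± 0.31 and -3.56 ± 0.32 (adjusted p = 1.8e-05, 5.3e-05 and 2.1e-05). They left 3.70%, 3.58% and 2.91% of the NL mean.

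**Figure D3:**
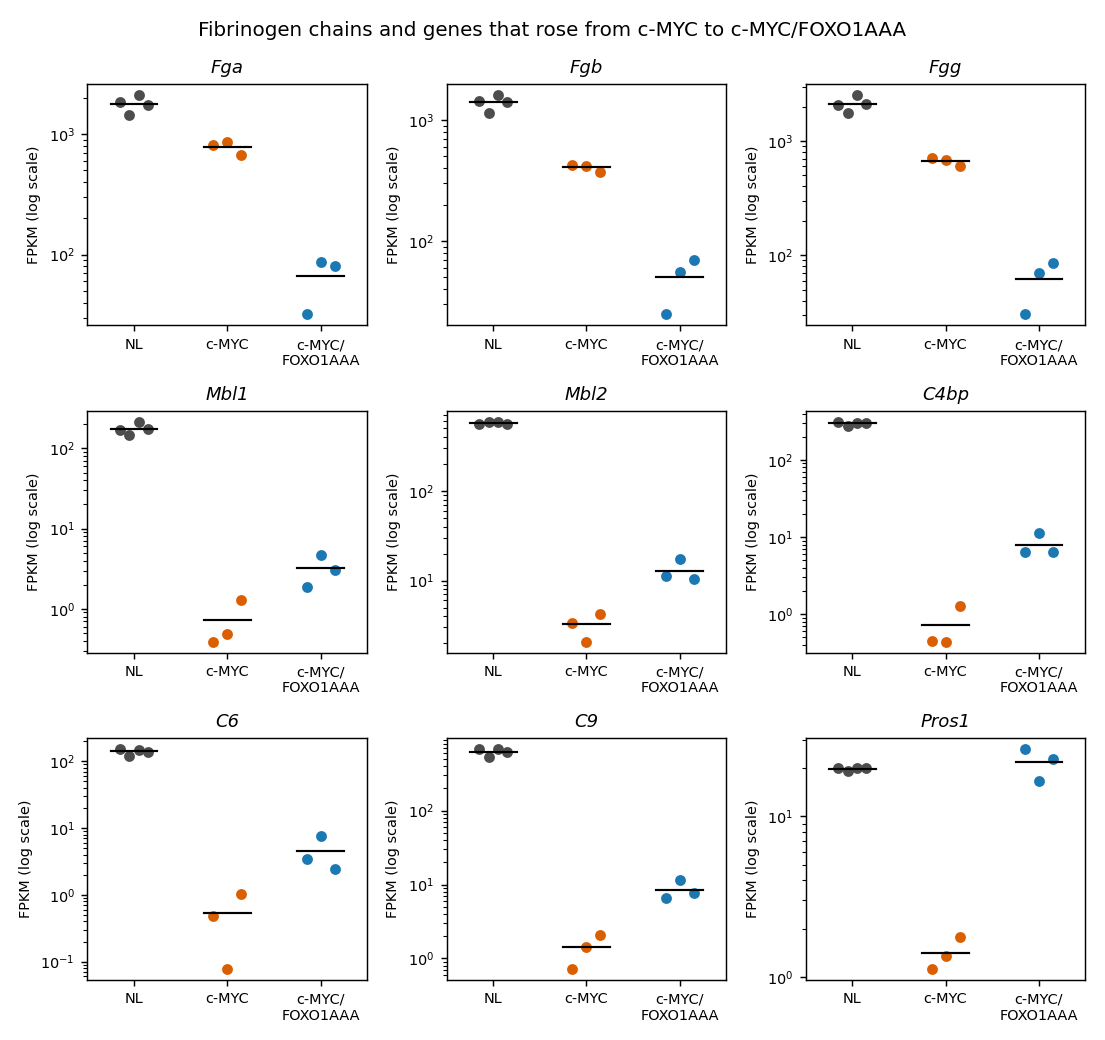
FPKM (log scale) of the 3 fibrinogen chains and of the 6 genes that rose from c-MYC to c-MYC/FOXO1AAA, with a point for each library and a line at the group mean (n = 4, 3 and 3). Fibrinogen steps down from group to group, the complement genes are lowest in c-MYC and Pros1 is similar in NL and c-MYC/FOXO1AAA.

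All 7 vitamin K dependent factors fell in c-MYC, and 5 of them fell further with FOXO1AAA. F7, the partner of tissue factor, measured 119, 101, 121 and 112 FPKM in NL, 27.0, 32.4 and 28.2 in c-MYC and 1.74, 2.35 and 5.44 in c-MYC/FOXO1AAA. F7 fell by 1.96 and then by 3.37 on the log2 scale (adjusted p = 0.0017 and 4.0e-05), the first not being called with an equal FPKM total (-1.03, adjusted p = 0.113), and its c-MYC/FOXO1AAA mean of 3.18 FPKM was 2.05 without library 3. F10, which joins F5 to activate prothrombin and is the neighbor of F7 on chromosome 8, had its mean of 12.1 FPKM in c-MYC/FOXO1AAA reduced to 7.08 in the same way. F2 (prothrombin), Proc (protein C, an anticoagulant protease) and Proz (protein Z, a cofactor in the inhibition of factor X) averaged 297, 131 and 23.0 FPKM in c-MYC and 39.8, 16.9 and 3.69 in c-MYC/FOXO1AAA, from 1626, 754 and 183 in NL.

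F9, the factor missing in hemophilia B, had the largest decrease of this group in c-MYC (-5.95 ± 0.35, adjusted p = 3.0e-07). It measured 85.5, 83.7, 90.2 and 89.1 FPKM in NL, 0.701, 2.61 and 1.52 in c-MYC and 1.66, 2.33 and 2.39 in c-MYC/FOXO1AAA. The tumor ranges overlapped, and the difference between them, 0.58 ± 0.37, was not called.

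Pros1, the gene of protein S, a cofactor of protein C, was the member whose level with FOXO1AAA overlapped that of NL. It measured 20.0, 19.2, 20.0 and 20.1 FPKM in NL, 1.12, 1.35 and 1.78 in c-MYC and 26.3, 16.7 and 22.7 in c-MYC/FOXO1AAA. The c-MYC libraries lay below all others, and the c-MYC/FOXO1AAA range enclosed that of NL. Pros1 fell by 3.83 (log2) in c-MYC relative to NL (adjusted p = 5.8e-08) and rose by 3.95 ± 0.19 between the tumors (adjusted p = 2.1e-07), the largest increase of the 37 genes. Against NL the c-MYC/FOXO1AAA level differed by 0.12 ± 0.18 and was not called. This last value took either sign, at -0.12 with equal medians and -0.027 without c-MYC/FOXO1AAA 1, and was called higher, at 1.22, with an equal FPKM total. Protein S is also made outside hepatocytes, by endothelial cells among others, and markers of other liver cells are given below.

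In the contact system, all 4 genes fell in c-MYC, and all but F11 were called lower again with FOXO1AAA. Kng1, the source of bradykinin, fell least of this group in c-MYC and measured 1645, 1501, 1632 and 1594 FPKM in NL, 398, 429.5 and 363 in c-MYC and 26.1, 31.6 and 76.4 in c-MYC/FOXO1AAA. Its mean in the last group, 44.7 FPKM, was 28.8 without library 3, and Kng2 is a close copy that could share its reads. F11 fell furthest of the 4 in c-MYC (-4.82 ± 0.37, adjusted p = 2.7e-06). It measured 85.2, 71.3, 69.9 and 75.9 FPKM in NL, 1.95, 5.53 and 1.75 in c-MYC and 0.741, 1.5 and 1.03 in c-MYC/FOXO1AAA, and its c-MYC mean of 3.08 FPKM was 1.85 without c-MYC 2. The difference in F11 between the tumors was -1.35 ± 0.40 (adjusted p = 0.13), and it was called lower with quantile normalization (-1.82, adjusted p = 0.0133) and with no fold threshold (adjusted p = 0.0146).

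F12, the protease that starts the contact reaction, fell from 517 ± 17.8 FPKM in NL to 111 ± 4.41 and then 16.6 ± 4.80. Klkb1 (prekallikrein), the neighbor of F11 on chromosome 8, fell from 71.9 ± 3.36 to 3.62 ± 1.45 and then 1.15 ± 0.677, the last mean being 0.755 without library 3. Its decrease between the tumors, -1.74 ± 0.36 (adjusted p = 0.017), was not called without c-MYC 2, c-MYC/FOXO1AAA 1 or c-MYC/FOXO1AAA 2 (adjusted p = 0.072, 0.0832 and 0.0808), nor with a pseudocount of 1 FPKM (-1.11, adjusted p = 0.0795). The readthrough gene Gm45753 shares 43.2% of the exon bases of Klkb1 on the same strand.

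Of the other plasma proteins, 6 of 7 fell in c-MYC and 5 of 7 fell between the tumors. Hrg, a heparin-binding glycoprotein of plasma, fell most of this group in c-MYC, with 982, 866, 985 and 925 FPKM in NL, 14.0, 9.89 and 11 in c-MYC and 10.6, 15.0 and 7.07 in c-MYC/FOXO1AAA. The tumors overlapped (-0.15 ± 0.23), and the sign of this difference turned without c-MYC/FOXO1AAA 3 (0.13). Habp2, a hyaluronan-binding protease, stood at the other end, with 100.3, 85.5, 81.7 and 93.7 FPKM in NL, 40.7, 46.8 and 30.2 in c-MYC and 2.29, 2.90 and 8.83 in c-MYC/FOXO1AAA. Its difference in c-MYC was not called (-1.22 ± 0.38, adjusted p = 0.12), but it was without c-MYC/FOXO1AAA 3, with only NL and c-MYC in the fit and with no fold threshold (adjusted p = 0.00314, 0.00352 and 0.0139). Over all alternatives this difference ranged from -1.36 to -0.29, with adjusted p up to 0.931. Its further decrease was called (-3.31 ± 0.41, adjusted p = 0.00022), and its c-MYC/FOXO1AAA mean of 4.67 FPKM was 2.59 without library 3.

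F5, the cofactor of factor Xa, fell from 93.6 ± 8.01 FPKM in NL to 2.03 ± 1.79 in c-MYC (0.998 without c-MYC 2) and measured 2.0 ± 1.05 in c-MYC/FOXO1AAA. The tumor difference of 0.22 ± 0.52 had no stable sign, at -0.25 without c-MYC 1 and -0.18 without c-MYC/FOXO1AAA 2. Plg (plasminogen), F13b (the carrier of factor XIII), Cpb2 (an inhibitor of fibrinolysis) and Hgfac (an activator of hepatocyte growth factor) fell in both steps, to 143, 55.2, 104 and 27.3 FPKM and then to 22.5, 5.27, 13 and 3.86. Of these, Cpb2 was not called in c-MYC versus NL without c-MYC 1 or c-MYC 3 (adjusted p = 0.0557 and 0.0638), and its last mean was 7.54 without c-MYC/FOXO1AAA 3. Neither F13b nor Cpb2 was called in c-MYC versus NL with an equal FPKM total (-0.51 and -0.77) or with quantile normalization (-1.01 and -1.05).

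The hepatocyte markers show how the members compare with liver cell RNA in general. All 9 markers measured were lower in both tumors than in NL, and their summed level was 119741 to 127967 FPKM in NL, 5975 to 8070 in c-MYC and 1331 to 2954 in c-MYC/FOXO1AAA. None was at 3 reads or fewer. In c-MYC/FOXO1AAA they stood at 1.08% (Apoc3) to 3.93% (Ahsg) of the NL mean, with Alb at 1.48%, and 5 of the 6 members that rose there lay between 1.36% and 3.25%. Between the tumors, 6 of the 9 markers were lower, Alb and Ahsg, both named after their values were seen, were not called, and Apoc3 was higher (1.88 ± 0.32) after a decrease to 0.316% of the NL mean in c-MYC. The part of hepatocyte RNA as a whole in the members' changes was not tested.

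**Figure D4:**
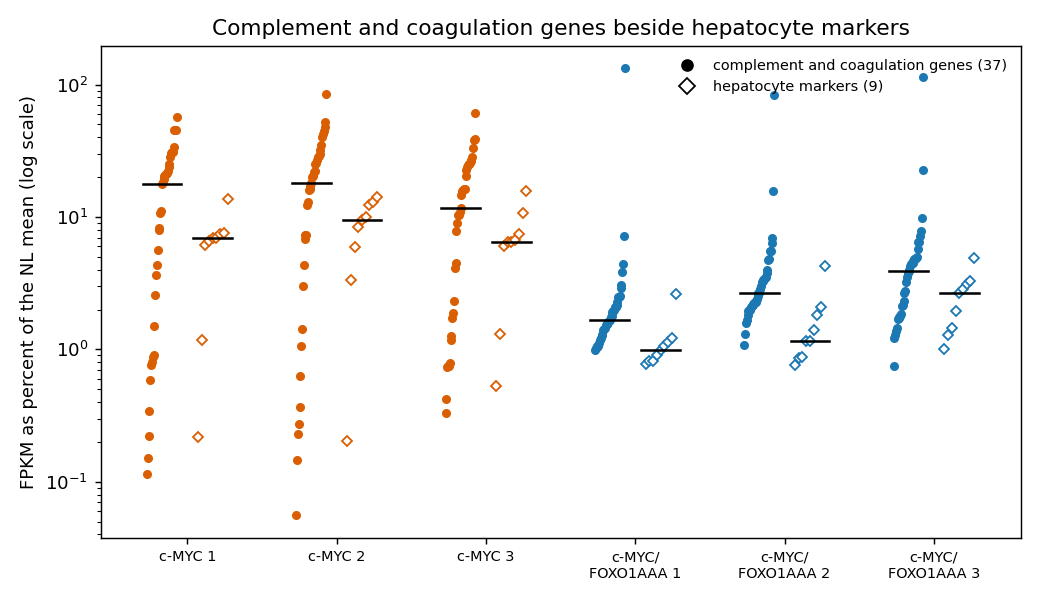
FPKM as a percent of the NL mean (log scale) of the 37 members (filled circles) and 9 hepatocyte markers (open diamonds) in each of the 6 tumor libraries, where bars are medians. In c-MYC the members reach both above and below the markers, and in c-MYC/FOXO1AAA nearly all genes of both lists lie between 0.7% and 10%.

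Markers of other liver cells moved too. The 6 stellate cell markers summed to 76.6 to 98.0 FPKM in NL, 7.08 to 26.3 in c-MYC and 376 to 430.2 in c-MYC/FOXO1AAA. Between the tumors, Dcn, Des, Acta2 and Reln were called higher with FOXO1AAA and 2 were not called. Relative to NL, 4 of the 6 were lower and 1 was higher in c-MYC. In c-MYC/FOXO1AAA 4 were higher than in NL, 1 was lower and 1 was not called. Over the same groups, the 6 Kupffer cell markers summed to 183 to 323, 70.9 to 105 and 26.9 to 47.2 FPKM. Gene by gene, 2 of these 6 were lower and 4 not called in c-MYC versus NL, with a median log2 fold change of -0.12. Between the tumors, 1 Kupffer marker was higher, 2 were lower and 3 were not called. The 7 sinusoidal endothelial markers summed to 54.2 to 71.7 FPKM in NL, 8.14 to 13.1 in c-MYC and 8.11 to 11.7 in c-MYC/FOXO1AAA. Of the 6 endothelial markers tested between the tumors, 3 had positive and 3 negative log2 fold changes, from -0.90 to 1.66, and 1 was called, Fcgr2b, which was higher. Both platelet markers tested, Pf4 and Itga2b, named after their values were seen, were called higher with FOXO1AAA than in c-MYC (1.65 ± 0.38 and 2.03 ± 0.29), and the 4 platelet markers measured summed to 4.63 to 6.10 FPKM in NL, 1.03 to 1.90 in c-MYC and 3.35 to 5.04 in c-MYC/FOXO1AAA. The part of these cells in the levels of Pros1 and the other members was not tested.

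Further genes of the same pathways were taken from lists. Beside their counts, 24.5% of all genes tested were called higher and 23.6% lower in c-MYC versus NL. Between the tumors these shares were 15.9% and 12.7%. Of 14 other complement components tested, 9 were lower in c-MYC than in NL and 5 were not called. Those not called included the chains of C1q (C1qa, C1qb and C1qc), which macrophages make and which were named after their values were seen. With FOXO1AAA 5 of the 14 were lower than in c-MYC and 1 was higher, Colec12, a scavenger lectin (15.0 ± 1.02, 0.641 ± 0.286 and 12.3 ± 1.55 FPKM in NL, c-MYC and c-MYC/FOXO1AAA), named after its values were seen.

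Of 11 complement regulators and receptors tested, 7 were lower and 1 was higher in c-MYC than in NL, and 3 were higher and 2 lower with FOXO1AAA than in c-MYC. Those higher included Clu and Cd55, the latter named after its values were seen. Clu (clusterin) averaged 1312 ± 93.5, 27.0 ± 12.3 and 188 ± 61.9 FPKM in NL, c-MYC and c-MYC/FOXO1AAA, and Cd55, a membrane inhibitor of C3 convertases, averaged 3.06 ± 0.643, 0.253 ± 0.0633 and 7.91 ± 2.58. Vtn (vitronectin), which blocks the terminal complex, fell in both steps, from 2702 to 523 and 94.7 FPKM.

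Of 10 other coagulation factors and cofactors tested, 5 were lower and 2 higher in c-MYC than in NL, and 4 were lower and 3 higher with FOXO1AAA than in c-MYC. Thbd (thrombomodulin), the thrombin receptor that activates protein C, averaged 0.435 ± 0.0530, 0.583 ± 0.0597 and 23.8 ± 9.76 FPKM in NL, c-MYC and c-MYC/FOXO1AAA, and rose by 5.27 ± 0.30 between the tumors (adjusted p = 4.4e-07). F3 (tissue factor), the trigger of coagulation, averaged 9.72 ± 2.42, 0.540 ± 0.451 and 5.57 ± 1.05. Among 13 coagulation and protease inhibitors, 8 were lower and 1 was higher in c-MYC than in NL. With FOXO1AAA, 9 of the 13 were lower and 1 was higher than in c-MYC. Apoh (beta-2 glycoprotein I) went from 3423 to 411 and 63.5 FPKM. Of 5 fibrinolysis genes, 4 were higher in c-MYC than in NL. Plau (urokinase) and its receptor Plaur then rose again, to 7.46 ± 2.55 and 9.04 ± 2.49 FPKM from 1.24 ± 0.316 and 1.77 ± 0.916.

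The genes that act on these factors or on their promoters were measured as well. Of 5 vitamin K cycle genes, 2 were lower in c-MYC and 3 with FOXO1AAA relative to c-MYC, beside 23.6% and 12.7% of all genes tested. Ggcx, the carboxylase that modifies the vitamin K dependent factors, averaged 26.8 ± 1.25, 20.1 ± 3.32 and 4.85 ± 0.526 FPKM, and its decrease was called between the tumors (-2.04 ± 0.13, adjusted p = 5.5e-06) and not in c-MYC versus NL. Of 16 liver transcription factors, 9 were lower in c-MYC than in NL, and 12 were lower with FOXO1AAA than in c-MYC. Of 9 genes of interleukin-6 signaling, the pathway that raises fibrinogen in the acute phase, 6 were lower in c-MYC than in NL, and 5 were higher with FOXO1AAA than in c-MYC, among them the receptor subunit Il6st (19.9 ± 1.04, 3.66 ± 0.777 and 28.1 ± 7.04 FPKM).

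Scaling moved calls of members in c-MYC versus NL more than in the other comparisons. The 37 genes held 3.05% to 3.67% of all reads in NL, 1.23% to 1.47% in c-MYC and 0.159% to 0.291% in c-MYC/FOXO1AAA, and c-MYC/FOXO1AAA 1 was the lowest library of its group for 30 of them. With libraries scaled to an equal FPKM total, the median over all genes tested moved from 0.08 to 1.05 in c-MYC versus NL (log2 fold change), and that of the members moved from -2.53 to -1.61. In c-MYC/FOXO1AAA versus NL these medians moved from 0.21 to 1.37 and from -5.33 to -4.23. Relative to all genes, the members' median in c-MYC versus NL was -2.62 as deposited and -2.65 with equal totals. The number of members called lower in c-MYC was 24 with equal totals in place of 34, and 28 with quantile normalization. The 10 genes that lost their call with equal totals were Masp2, C3, Hc, Fgb, Fgg, F7, F10, Kng1, F13b and Cpb2, at -0.48 to -1.18, and 6 of them (Masp2, Fgb, Fgg, Kng1, F13b and Cpb2) also lost it with quantile normalization.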

How the data were processed

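RNA sequencing of mouse liver tissue was analyzed in 10 libraries, grouped by the titles in the labels. The deposited table holds log2 FPKM, which the authors made from read counts per gene. The values showed a prior count of 2, added by the authors before the logarithm, so log2 fold changes of low genes are understated. Per the submitters' processing notes, the build was GRCm38 and FastQC 0.11.7 was run. The aligner, the counting tool and the strand setting are not given in the sources used here. The authors' test was edgeR's glmTreat on counts. It was not run here, and limma was used on the deposited log2 values.

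FPKM were obtained from the log2 values, and whole reads were recovered by finding the gene length at which all libraries gave reads within 0.0001 of a whole number, for 16696 of 16697 genes. Another 372 rows without a symbol were left out, of 17069. Genes with at least 1 FPKM in at least 3 libraries were kept (14017, all 37 members included). The deposited log2 values of all 10 libraries were fitted with limma 3.58.1 (R 4.3.3), and treat tested 2-sided for changes above 1.5-fold with trend and robust estimation and Benjamini-Hochberg adjustment over all genes. The procedure was tested on simulated data. Positions are those of GRCm38 in GENCODE M21.

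The members and lists were chosen with earlier results of these data known. Values per library are given for fibrinogen, for the members with the largest and smallest change in c-MYC versus NL in each functional group, and for those called in opposite directions. Genes outside the 37 are named at most 4 per list by size of change, beside genes that a result turns on and those said to be named after their values were seen. Alternatives were other pseudocounts, filters, scalings, fold thresholds and variance settings, a fit of 2 groups, a replicate block and leaving out each library. All errors are SD over libraries or SE of the fit, and no set test was run. Values of some genes of these lists are not reported here.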

Additional observations from a re-analysis of the deposited data

Results flagged for a closer look

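NL 2 stood below the other normal livers for 3 genes, each with a gap to the next library that was large for a group of 4. C4b measured 394 FPKM in NL 2 and 534 to 562 in the others, Plg measured 1117 and 1243 to 1260.1, and Pros1 measured 19.2 and 20.0 to 20.1. The check was made for 37 genes in NL, and chance flags about 1 in 20 groups. NL 2 was also the lowest normal liver for 25 of the 37 genes, though with 3.05% of its reads in them it was close to the 3.40% to 3.67% of the other libraries. No call changed without NL 2 except that of Masp2 in c-MYC versus NL.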

How the results depend on the processing

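The counts of members called stayed within 1.5 times under all alternatives: 24 to 36 of 37 in c-MYC versus NL, with 24 at an equal FPKM total and 29 at a 2-fold threshold, 27 to 34 between the tumors, and 35 to 37 in c-MYC/FOXO1AAA versus NL (35 with the filter that left Cfb untested). Leaving out each library in turn gave 32 to 35, 27 to 31 and 36, and the 6 genes higher with FOXO1AAA were 6 each time. Replicate numbers did not pair the samples, since deviations of same-numbered libraries correlated at -0.040 to 0.027, and the replicate block gave 33, 30 and 36 calls, with Masp2 lost in c-MYC versus NL (-1.44). Signs reversed for uncalled differences. Cfb in c-MYC versus NL was 0.36 at an equal FPKM total. Between the tumors, F5 was -0.27 with quantile normalization and ranged from -0.25 (without c-MYC 1) to 0.91 (without c-MYC 2) as libraries were left out, negative also without c-MYC/FOXO1AAA 2 (-0.18). Hrg was 0.020 at an equal FPKM total and ranged from -0.41 (without c-MYC/FOXO1AAA 2) to 0.13 (without c-MYC/FOXO1AAA 3). Pros1 in c-MYC/FOXO1AAA versus NL was -0.12 with equal medians and ranged from -0.027 (without c-MYC/FOXO1AAA 1) to 0.30 (without c-MYC/FOXO1AAA 2) as libraries were left out. That filter was a mean of at least 5 FPKM. The causes were not tested. Depth limits the lowest values, with 6 to 20 reads behind each value of Cfb in c-MYC/FOXO1AAA and as few as 2 behind C6 in c-MYC.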
